A study of Mus musculus with 9 samples.

Results

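The regulators of G protein signaling (Rgs genes) were followed in cultured AdvSca1-SM cells, progenitor cells of the arterial adventitia that descend from smooth muscle. The 10 genes described are Rgs2, Rgs3, Rgs4, Rgs5, Rgs7, Rgs10, Rgs12, Rgs16, Rgs17 and Rgs19, selected on the read counts of all 9 libraries in the 3 groups, so that their levels and changes are given as a description and carry no test. They are 10 of the 21 numbered Rgs genes, and of the 55416 genes, in the count table. The cells came from the aorta and carotid arteries of pooled young adult SM22α-Cre-YFP mice on a C57BL/6 background, in which Cre under the SM22α (Tagln) promoter switches on a ROSA26-YFP reporter, and were sorted as Sca1+ YFP+ and subcultured. Because the same promoter labels mature medial smooth muscle, the reporter alone does not separate the cell types. Every culture had 0.1% DMSO, the vehicle, and was kept for 72 hours. The Stem group (3 libraries) received vehicle only and, by the study's methods, stem cell medium; the TGF-β group (3 libraries) received 5 ng/mL TGF-β1, the cytokine used to drive cells toward myofibroblasts; the Both group (3 libraries) received the same TGF-β1 with 50 μM PFI-3, a compound directed at the bromodomain of Brg1, a chromatin remodeler. The TGF-β and Both cultures were moved to another, low-serum medium, so TGF-β1 and the change of medium cannot be told apart in comparisons with Stem. The comparison of TGF-β with Both asks what PFI-3 changed in the presence of TGF-β1.

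G protein–coupled receptors act through heterotrimeric G proteins, which signal while the Gα subunit holds GTP. RGS proteins bind active Gα and speed its hydrolysis of GTP, which shortens the signal. The R4 subfamily (here Rgs2, Rgs3, Rgs4, Rgs5 and Rgs16) consists mainly of small proteins that act on Gαq and Gαi, and Rgs2 prefers Gαq; the R7 subfamily (Rgs7) needs Gβ5 as a partner; the R12 subfamily (Rgs10 and Rgs12) and the RZ subfamily (Rgs17 and Rgs19) act on Gαi-class proteins. In blood vessels, Rgs2, Rgs4 and Rgs5 are known for limiting the response to vasoconstrictors, and Rgs5 is widely used as a marker of pericytes and of arterial smooth muscle.

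Total counts were 35686291 to 47741128 per library, and normalized counts below are counts scaled to a mean effective library of 41184338. Spearman correlations between libraries of a group were 0.995 or more to 3 decimals. The 5 AdvSca1-SM markers (Ly6a, Cd34, Pdgfra, Scara5 and Gli1) summed to 50477 to 58768 normalized counts in Stem, against 6373 to 6648 in TGF-β and 6805 to 7431 in Both. Most of each sum was Pdgfra, which averaged 45657, 5438 and 6268 in the 3 groups. From Stem to TGF-β and from Stem to Both 4 of the 5 were called lower and Gli1, at most 13.4 normalized counts on average in any group, higher. Although the sum was higher in Both than in TGF-β, 3 of the 5 markers were lower in Both and 2 higher. Their median log2 fold change was -0.36. Scara5 was called lower in Both, as it was in 11 of 17 alternative fits. Markers of hepatocytes summed to at most 2.63, although the label for RNA extraction names hepatic tissue, and endothelial markers to at most 77.1.

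A gene was called where edgeR's quasi-likelihood test gave a Benjamini-Hochberg adjusted p under 0.05 and the log2 fold change was beyond 1 or -1. By this measure Rgs4, Rgs5 and Rgs19 were higher and Rgs2 and Rgs16 lower in TGF-β than in Stem, which is 5 of the 9 Rgs genes with enough counts to be fitted. Over all 14879 genes fitted, 25.1% were called in this comparison, 10.6% higher and 14.5% lower. Between TGF-β and Both a single one of the 9, Rgs5, was called, lower in Both, where the background was 0.632% of genes and 0.47% in that direction. Between Stem and Both, Rgs4 and Rgs5 were higher and Rgs2 and Rgs16 lower, 4 of 9, against 22.8% of all genes (9.55% higher and 13.2% lower). At an adjusted p under 0.05 with no fold minimum the counts were 8, 2 and 7 of 9 in the 3 comparisons, where 75%, 8.92% and 73.3% of all genes passed. The values of the 2 groups did not overlap for 8 of 9 genes between Stem and TGF-β, where 76.8% of all genes did not, for 5 of 9 between TGF-β and Both (32.7% of all genes), and for 8 of 9 between Stem and Both (74.7% of all genes). The list was chosen with these counts in view, so nothing is read from the difference from the background.

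The genes furthest apart between groups were Rgs5, Rgs4, Rgs16 and Rgs2, and the 250 bases before their transcription starts are shown to give their promoters side by side. All 4 genes lie on chromosome 1, as does Rgs7, which was too low to be fitted. The sequences are from RefSeq on GRCm38.p6, which is not the build used for counting, at chr1:144004150-144004399 (minus strand) for Rgs2, chr1:153740103-153740352 (plus) for Rgs16, chr1:169655251-169655500 (plus) for Rgs5 and chr1:169747643-169747892 (minus) for Rgs4. Each is written 5′ to 3′ along the gene, and capitals mark the CCAAT box (CCAAT), the half-site of the cAMP response element (TGACG) and the TATA box (TATAAA), searched on both strands.
Rgs2: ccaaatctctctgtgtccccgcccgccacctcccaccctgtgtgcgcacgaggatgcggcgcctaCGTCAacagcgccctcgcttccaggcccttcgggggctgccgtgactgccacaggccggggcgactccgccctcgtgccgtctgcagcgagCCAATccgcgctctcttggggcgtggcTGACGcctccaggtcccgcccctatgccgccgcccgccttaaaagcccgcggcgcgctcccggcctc
Rgs16: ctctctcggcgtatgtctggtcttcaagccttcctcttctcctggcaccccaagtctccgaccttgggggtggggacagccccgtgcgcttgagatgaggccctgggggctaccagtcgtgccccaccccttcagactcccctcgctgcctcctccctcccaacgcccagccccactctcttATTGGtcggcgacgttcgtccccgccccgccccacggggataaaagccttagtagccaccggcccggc
Rgs5: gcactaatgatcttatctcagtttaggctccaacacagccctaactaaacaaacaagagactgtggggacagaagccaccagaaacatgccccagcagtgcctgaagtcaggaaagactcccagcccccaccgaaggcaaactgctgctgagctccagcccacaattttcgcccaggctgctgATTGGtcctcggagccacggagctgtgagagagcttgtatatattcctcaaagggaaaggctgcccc
Rgs4: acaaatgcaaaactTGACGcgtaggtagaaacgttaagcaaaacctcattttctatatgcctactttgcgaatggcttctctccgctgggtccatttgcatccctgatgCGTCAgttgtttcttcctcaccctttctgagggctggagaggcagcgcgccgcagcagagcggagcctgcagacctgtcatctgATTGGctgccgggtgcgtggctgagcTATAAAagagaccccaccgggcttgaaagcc
A CCAAT box stood in each of these 4 windows, its first base 94 bases before the start in Rgs2, 68 in Rgs16, 67 in Rgs5 and 57 in Rgs4, and in none of the other 6 listed genes. It occurred in 33.8% of the 32851 mouse promoter windows of the same length. Several motifs were searched and the 4 genes were picked by their changes, so nothing is read from this split of the list. The cAMP half-site was found at 185 and 67 bases before the start of Rgs2 and at 236 and 141 before that of Rgs4, and in 17.8% of all windows. Of the 4, the exact sequence TATAAA was in Rgs4 only, 31 bases before the start, and was in 12.4% of all windows. Variants of the TATA box were not searched. The promoters differed in composition: Rgs2 had 72.4% G and C with 30 CpG dinucleotides, Rgs16 66.4% with 17, Rgs4 53.6% with 13 and Rgs5 53.6% with 4, against medians of 52.4% and 6 over all windows. The AP-1 sequence (TGANTCA, in 6.75% of windows), the palindromic SMAD element (GTCTAGAC, 0.167%) and the CArG box bound by serum response factor (1.47%) did not occur in these 4. The shorter SMAD box (CAGAC, in 42.2% of windows) occurred in Rgs2, Rgs16 and Rgs4 and not in Rgs5. These are matches of letters and no binding was measured.

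Rgs5 had the widest range of the family. Its normalized counts were 129.8, 119.5 and 125.5 in the Stem libraries, 6535, 7078 and 5615 in TGF-β, and 2026, 2619 and 1715 in Both. Every TGF-β library was above every Both library, and every Both library was above every Stem library. The level in TGF-β was 51.2-fold that in Stem (log2 fold change 5.68 ± 0.17, SE), and that in Both was 3.03-fold lower than in TGF-β (log2 fold change -1.60 ± 0.12). With PFI-3 the level remained 16.9-fold above Stem (4.08 ± 0.17). Leaving out 1 library at a time kept the difference between TGF-β and Both between -1.78 and -1.47 on the log2 scale.

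Rgs4, a second vascular member of the R4 subfamily, moved in the same order with a narrower range. It had 58.6, 43.5 and 55.2 normalized counts in Stem, against 757.5, 667.3 and 658.0 in TGF-β and 516.8, 535.0 and 396.7 in Both. Again no library of one group lay within the range of another. The TGF-β level was 13.2-fold that of Stem (log2 fold change 3.72 ± 0.15), and Both was 1.44-fold lower than TGF-β (-0.53 ± 0.11), short of the 2-fold minimum.

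Rgs2 and Rgs16, also of the R4 subfamily, went the other way. Rgs2 had 167.5, 191.2 and 169.8 normalized counts in Stem, against 34.5, 23.3 and 29.3 in TGF-β and 29.7, 13.8 and 36.0 in Both. Stem was above all 6 other libraries, while TGF-β and Both overlapped. The level was 6.06-fold lower in TGF-β than in Stem (log2 fold change -2.60 ± 0.23) and 6.53-fold lower in Both (-2.71 ± 0.23). Between TGF-β and Both the difference was -0.11 ± 0.29, and its sign turned when single libraries were left out.

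Rgs16, which acts on Gαi and Gαq, had 368.5, 423.8 and 370.0 normalized counts in Stem, against 43.2, 32.5 and 48.8 in TGF-β and 60.3, 54.3 and 45.6 in Both. It was 9.30-fold lower in TGF-β than in Stem (log2 fold change -3.22 ± 0.14) and 7.25-fold lower in Both (-2.86 ± 0.14). The Both and TGF-β libraries overlapped, and their difference was 0.36 ± 0.18. For Rgs2 and Rgs16 alike, all 3 Both libraries lay below the lowest Stem library.

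Rgs3, a longer R4 member, had 260.7, 311.9 and 245.6 normalized counts in Stem, against 443.5, 358.0 and 417.9 in TGF-β and 331.3, 318.8 and 318.6 in Both. TGF-β was above both other groups without overlap, by 1.49-fold over Stem (log2 fold change 0.58 ± 0.10) and by 1.26-fold over Both (-0.33 ± 0.10 for Both over TGF-β). All the Both libraries were also above the highest Stem library.

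**Figure D1:**
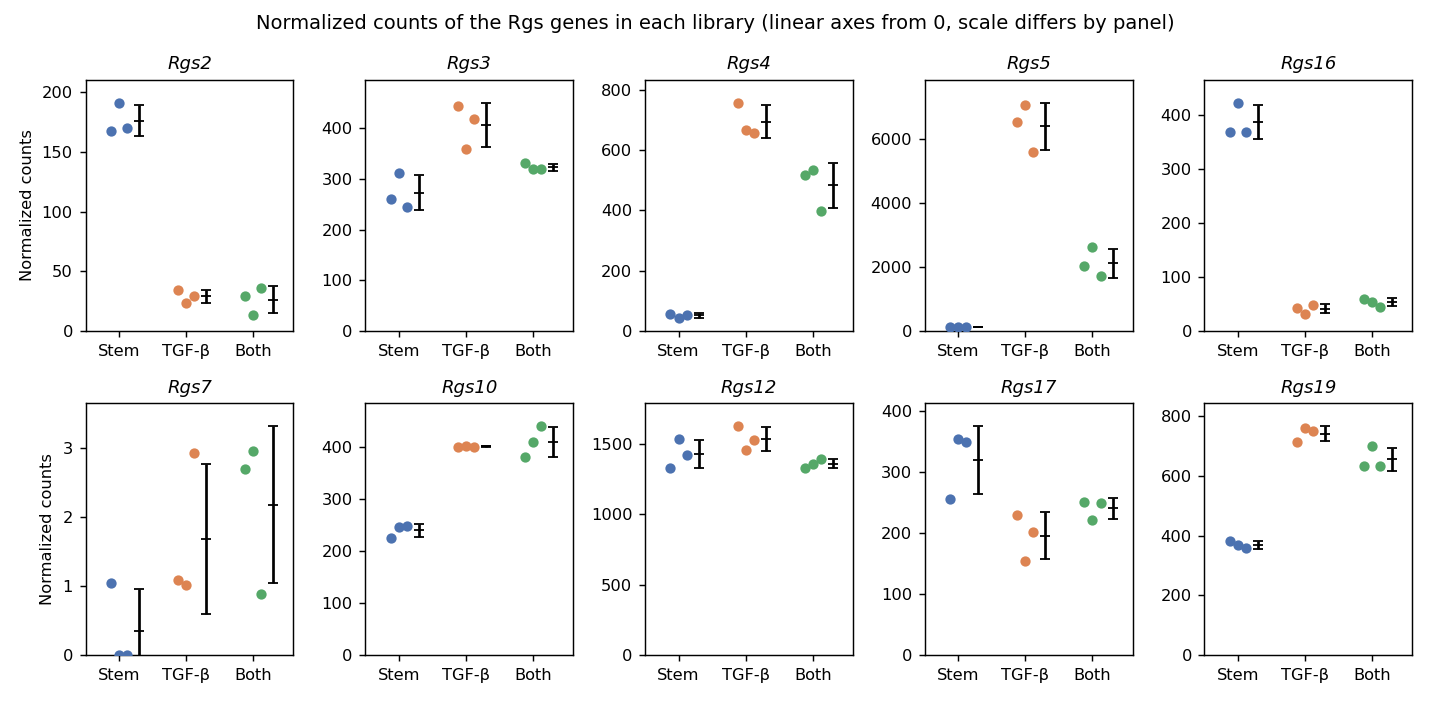
Normalized counts of the 10 listed Rgs genes in each library, with a panel per gene, linear vertical axes that start at 0 and differ in scale, and groups Stem, TGF-β and Both on the horizontal axis. Points are libraries and the bar beside them is the mean with its SD (n = 3); Rgs5 and Rgs4 are highest in TGF-β and intermediate in Both, Rgs2 and Rgs16 are highest in Stem, and Rgs7 stays at or under 3.0 normalized counts.

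The fitted members outside the R4 subfamily had narrower ranges than Rgs2, Rgs4, Rgs5 and Rgs16. Rgs19 (also called GAIP), of the RZ subfamily, had 381.1, 367.3 and 357.0 normalized counts in Stem, against 714.4, 761.6 and 749.8 in TGF-β and 633.8, 700.8 and 634.6 in Both. It was 2.01-fold higher in TGF-β than in Stem (log2 fold change 1.01 ± 0.06), at the edge of the 2-fold minimum, and 1.13-fold lower in Both than in TGF-β, without overlap. Its call was lost when Stem replicate 3 or TGF-β replicate 2 was left out, with log2 fold changes of at least 0.99, under scaling by total counts, with 0.89, and under a stricter filter of a mean of at least 10 counts.

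Rgs10, a short protein of the R12 subfamily that is abundant in immune cells, had 225.1, 245.6 and 248.8 normalized counts in Stem, against 400.3, 402.6 and 400.3 in TGF-β and 380.9, 408.6 and 439.7 in Both. It was 1.67-fold higher in TGF-β than in Stem and 1.71-fold higher in Both (log2 fold changes 0.74 ± 0.08 and 0.77 ± 0.08). TGF-β and Both overlapped, with a difference of 0.03 ± 0.07. Leukocyte markers summed to 140 to 152 normalized counts in Stem, against 178 to 219 in TGF-β and 291 to 307 in Both, with Cd3e and Adgre1 at 0 in all libraries and the pan-leukocyte Ptprc averaging at most 2.37. Of the 3 fitted leukocyte markers, the macrophage genes Csf1r and Cd68 were called higher from Stem to TGF-β, by 1.41 and 1.86 on the log2 scale, and from Stem to Both, by 2.27 and 1.97, the direction of Rgs10, and Lyz2 was not called in either. None of the 3 was called between TGF-β and Both, where Rgs10 differed by 0.03. All 3 were higher in Both, with a median log2 fold change of 0.41. At an adjusted p under 0.05 alone 2 of the 3 passed, where 8.92% of all genes did. The groups did not overlap for 2 (32.7% of all genes). Csf1r averaged 28.5, 76.1 and 138 normalized counts in Stem, TGF-β and Both and Cd68 3.53, 13.2 and 14.3; the Cd68 call from Stem to TGF-β was lost in a fit of those 6 libraries alone. Their part in the level of Rgs10 was not tested.

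Rgs17, the other RZ member, had 255.4, 354.2 and 348.4 normalized counts in Stem, against 229.8, 154.2 and 202.1 in TGF-β and 251.2, 221.1 and 248.4 in Both. It was lower in both treated groups than in any Stem library, by 1.63-fold in TGF-β (log2 fold change -0.71 ± 0.15) and 1.33-fold in Both (-0.41 ± 0.15), and TGF-β and Both overlapped.

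Rgs12, a large scaffold protein with further binding domains beside its RGS domain, had 1331, 1531 and 1419 normalized counts in Stem, against 1624, 1456 and 1528 in TGF-β and 1328, 1354 and 1390 in Both. Stem overlapped each of the other groups, and the difference between Stem and TGF-β was 0.11 ± 0.06, which became -0.01 when libraries were scaled by total counts. Both was 1.13-fold lower than TGF-β without overlap (-0.18 ± 0.06).

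Rgs7, the listed R7 member, was at or near 0, with 1, 0 and 0 counts in Stem, against 1, 1 and 3 in TGF-β and 3, 3 and 1 in Both. No fold is given, since no library exceeded 3 counts.

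Over the 9 fitted genes the median log2 fold change was 0.58 from Stem to TGF-β, -0.18 from TGF-β to Both and 0.24 from Stem to Both, where the medians over all genes fitted lay within 0.005 of 0. The range over the 9 was wide in the comparisons with Stem and held genes at both ends, so the median describes no single gene.

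**Figure D2:**
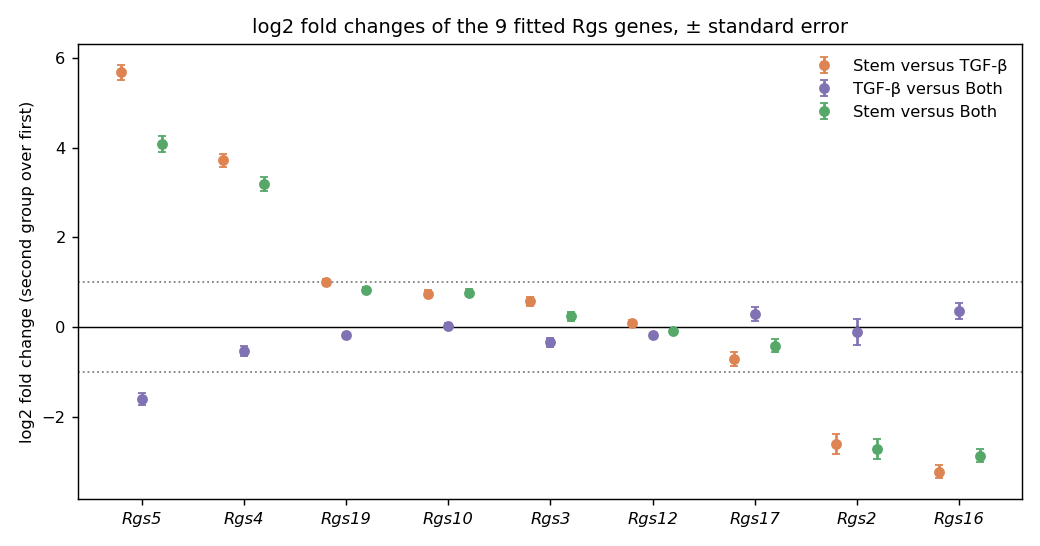
log2 fold changes of the 9 fitted Rgs genes, second group over first, for Stem versus TGF-β, TGF-β versus Both and Stem versus Both, with bars of 1 standard error and dotted lines at 1 and -1. Rgs5 and Rgs4 lie far above 0 and Rgs2 and Rgs16 far below it against Stem, and Rgs5 at -1.60 is the 1 gene beyond the dotted lines between TGF-β and Both.

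Levels of different genes were compared as normalized counts per kb of merged exon, with exon lengths from the GRCm38 annotation. The 21 Rgs genes together came to 803 ± 34.6 (SD, n = 3) per kb in Stem, against 2474 ± 158 in TGF-β and 1409 ± 126 in Both. In Stem, Rgs12, Rgs16 and Rgs19 were highest, at 168 ± 11.8, 166 ± 13.5 and 165 ± 5.41 per kb, and these 3 overlapped one another. Rgs10 followed at 140 ± 7.52, its highest library below the lowest of theirs, then Rgs2 at 48.6 ± 3.61 and Rgs17 at 38.5 ± 6.68. Rgs5 at 27.5 ± 1.14 and Rgs3 at 25.2 ± 3.22 overlapped, and Rgs4 was lowest of the 9 at 16.9 ± 2.56.

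In TGF-β the order was led by Rgs5 at 1410 ± 163 per kb, above Rgs19 at 333 ± 11.0. Rgs10 at 234 ± 0.776 and Rgs4 at 224 ± 17.7 overlapped, and Rgs12 followed at 181 ± 9.92 and Rgs3 at 37.6 ± 4.06. Rgs17 at 23.5 ± 4.61 and Rgs16 at 17.7 ± 3.55 overlapped, and Rgs2 came last at 8.01 ± 1.55. In Both the order began with Rgs5 at 466 ± 101, Rgs19 at 294 ± 17.2 and Rgs10 at 239 ± 17.2. Rgs12 at 160 ± 3.68 and Rgs4 at 156 ± 24.3 overlapped there, as did Rgs3 at 29.9 ± 0.675 and Rgs17 at 29.0 ± 2.00. Rgs16 at 22.8 ± 3.16 and Rgs2 at 7.31 ± 3.15 were lowest.

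Rgs5 therefore made up 3.43% ± 0.286 of the family's per-kb total in Stem, against 56.9% ± 3.07 in TGF-β and 32.9% ± 4.14 in Both. The share of Rgs16 was 20.6% ± 0.851 in Stem, against 0.724% ± 0.188 in TGF-β and 1.62% ± 0.220 in Both. Rgs4 held 2.12% ± 0.403, 9.07% ± 0.706 and 11.0% ± 1.17 of the total in the same order, so its share in TGF-β and Both lay far closer together than that of Rgs5. These are shares of a total that itself was 2474 per kb in TGF-β and 1409 in Both. The level of Rgs4 was lower in Both, at 156 per kb against 224 in TGF-β.

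**Figure D3:**
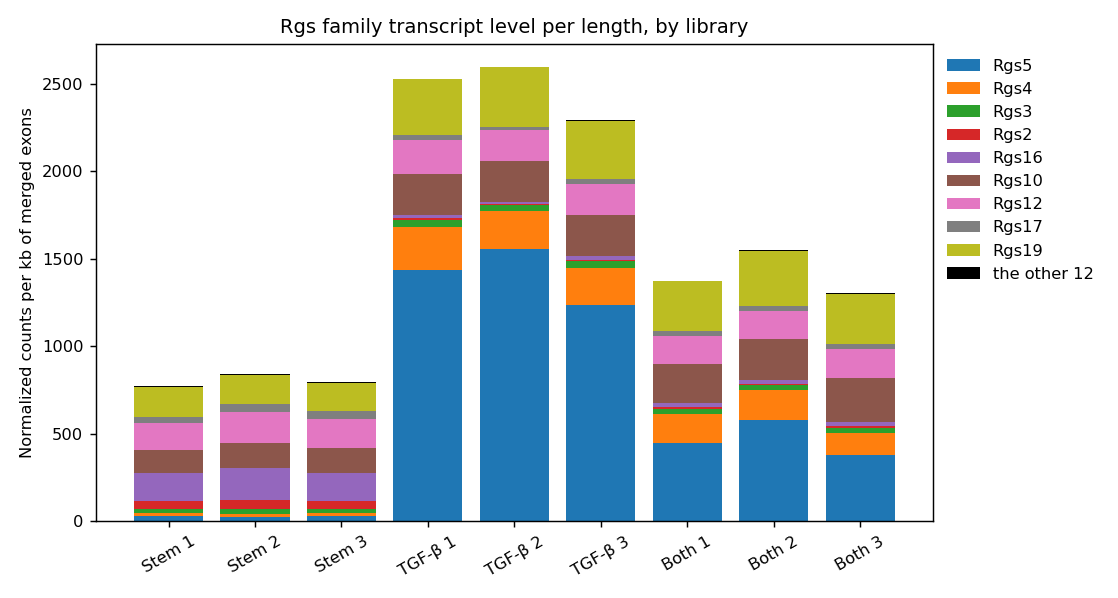
Normalized counts per kb of merged exon of the Rgs genes in each of the 9 libraries, stacked by gene on a linear axis from 0, with the 12 Rgs genes not fitted as a single class. Rgs5 is the largest part of every TGF-β and Both bar and a thin part of every Stem bar, where Rgs12, Rgs16, Rgs19 and Rgs10 make up most of the height.

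The 11 numbered Rgs genes outside the list (Rgs1, Rgs6, Rgs8, Rgs9, Rgs11, Rgs13, Rgs14, Rgs18, Rgs20, Rgs21 and Rgs22) all fell below the filter on low counts. None exceeded 13 counts in any library, 6 had at most 3 counts in every library, and Rgs14 was at 0 throughout. The 13 counts were of Rgs8 in Stem replicate 2, with 2 and 3 counts in the other Stem libraries and at most 1 in any TGF-β or Both library. Rgs13 had 8, 4 and 7 counts in Stem, 3, 2 and 0 in TGF-β and 0 in all the Both libraries. In a fit without the filter, with 26207 genes tested, edgeR's adjusted p for Stem against TGF-β was 0.00198 for Rgs8 and 0.0385 for Rgs13, from counts too low for a useful fold.

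Several Rgs genes lie side by side on chromosome 1, and the nearest protein-coding genes were read from the GRCm38 annotation for order alone. Rgs4 and Rgs5 are direct neighbours. On the far side of Rgs5, Nuf2, a kinetochore gene, differed by 0.69 on the log2 scale between Stem and TGF-β (edgeR adjusted p = 0.0425), under the 2-fold minimum, and on the far side of Rgs4, Ccdc190 had at most 2 counts. Rgs16 lies beside Rgs8. Rgs2 lies between Rgs13 and Uchl5, a deubiquitinase gene, which differed by 0.30 (edgeR adjusted p = 0.00399) in the direction opposite to Rgs2. Beside Rgs3, Zfp618 fell by 2.19 on the log2 scale where Rgs3 was higher.

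The genes with profiles nearest to the 3 widest-ranging members were found among 11256 fitted genes by the root mean square difference of centred log2 values over the 9 libraries, where 0 is an identical shape. Nearest to Rgs5 were Col2a1, the chain of cartilage collagen, at 0.159, Nat8l, which makes N-acetylaspartate, at 0.234, and Pmaip1, which encodes the apoptosis protein Noxa, at 0.397. Col2a1 averaged 33.2, 1617 and 614 normalized counts in Stem, TGF-β and Both. Nearest to Rgs4 were Arhgef28, a guanine nucleotide exchange factor, at 0.163, Plxna4, a semaphorin receptor, at 0.171, and P2ry6, a G protein–coupled UDP receptor, at 0.172. Nearest to Rgs16 were Pdgfra, the receptor α chain for platelet-derived growth factor, at 0.166, Sfrp1, a secreted Wnt antagonist, at 0.188, and Id2, an inhibitor of basic helix-loop-helix factors, at 0.195. Pdgfra averaged 45657 normalized counts in Stem, against 5438 in TGF-β and 6268 in Both.

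Because Rgs5 is used as a mural cell marker, the other markers of those cells were read beside it. The 9 pericyte markers summed to 36904 to 38298 normalized counts in Stem, against 84831 to 90817 in TGF-β and 82999 to 89919 in Both. Higd1b was at 0 in all 9 libraries and Cox4i2 did not pass the filter. From Stem to TGF-β, 4 rose (Pdgfrb, Cspg4, Mcam and Ndufa4l2; Cspg4 by 4.15 and Ndufa4l2 by 4.03 on the log2 scale) and 2 fell (Abcc9 by 3.29 and Kcnj8 by 3.54); the call of Pdgfrb, at 1.02, was lost under scaling by total counts, at 0.90. None of the 7 fitted was called between TGF-β and Both, where Rgs5 was 3.03-fold lower; at an adjusted p under 0.05 alone, Abcc9 was higher by 0.79 and Mcam lower by 0.76 on the log2 scale (edgeR adjusted p = 0.0218 and 0.00624). The 7 smooth muscle markers summed to 10616 to 13334 in Stem, against 22714 to 25175 in TGF-β and 17412 to 18346 in Both. Acta2 and Tagln rose from Stem to TGF-β, by 1.21 and 1.42 on the log2 scale, while Myh11, the myosin heavy chain of mature smooth muscle, fell by 1.58. In all, 3 of the 7 had a higher and 4 a lower value in TGF-β than in Stem, with a median log2 fold change of -0.06. Between TGF-β and Both none of the 7 was called, but all 7 were lower in Both, the direction of Rgs5, with a median of -0.59. The groups did not overlap for 6 of the 7, where 32.7% of all genes did not. At an adjusted p under 0.05 alone, Acta2, Cnn1 and Tagln passed, with log2 fold changes of -0.59, -0.63 and -0.25 (edgeR adjusted p = 0.00068, 0.00914 and 0.0322). In bulk RNA, more cells of a type and more RNA per cell cannot be told apart, and the part of either marker list in the level of Rgs5 was not tested.

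The rest of the pathway was read from 7 lists, which with the 11 numbered Rgs genes outside the list held 127 genes. Of the 127, 93 were fitted and tested with edgeR, and none of the 11 was among them. From Stem to TGF-β, 12 were called higher and 20 lower, and from TGF-β to Both 1 higher and 1 lower, beside the 25.1% and 0.632% of all genes given above. From Stem to Both, 13 were higher and 22 lower. The median log2 fold change over the 93 was -0.04, 0.00 and -0.11 in these comparisons. The lists were drawn up with earlier results of these data known. Nothing is therefore read from the difference from the background, and the adjusted p-values of listed genes are given as a description.

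Receptors that couple to Gq or Gi, the longest of the lists, held most of the calls. Of 43 listed and 33 fitted, 5 rose and 15 fell from Stem to TGF-β, with a median log2 fold change of -0.90, and 7 rose and 17 fell from Stem to Both, with a median of -1.10. Agtr2, the type 2 angiotensin receptor, had 930.7, 1126 and 1174 normalized counts in Stem and at most 1.08 in TGF-β. It was thus at least 351-fold lower against a floor of 3 counts per library. The study's text names Agtr2 as a gene raised by TGF-β1, the direction opposite to these counts. S1pr3, a sphingosine-1-phosphate receptor, had 1116, 1464 and 1424 normalized counts in Stem and 52.9, 77.1 and 61.5 in TGF-β, a log2 fold change of -4.38 ± 0.15 (edgeR adjusted p = 7.1e-11). Ptgfr, the prostaglandin F2α receptor, fell by 3.98 (adjusted p = 1.7e-10), and P2ry1, an ADP receptor, fell by 3.73 from Stem to TGF-β and by 3.59 from Stem to Both (edgeR adjusted p = 1.2e-08 in the latter). P2ry6 was among those that rose, from 39.98 to 465.9 normalized counts on average, by 3.54 ± 0.11. It was 0.63 lower in Both than in TGF-β on the log2 scale (edgeR adjusted p = 0.000495), under the 2-fold minimum.

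The call among receptors between TGF-β and Both was Bdkrb1, the inducible bradykinin receptor, which had 4.3, 3.0 and 2.9 normalized counts in TGF-β and 6.3, 9.9 and 18.4 in Both (log2 fold change 1.73, edgeR adjusted p = 0.0476). The call rested on few counts and was lost in DESeq2, in a fit of the 6 libraries alone and in 6 of the 9 fits that left out a library.

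Among Gα subunits, the direct substrates of RGS proteins, 15 were listed and 14 fitted, and 3 rose from Stem to TGF-β while none was called lower. Gna14, of the Gq class, had 34.5, 21.7 and 28.1 normalized counts in Stem, against 214.7, 215.0 and 231.4 in TGF-β and 96.3, 94.8 and 72.8 in Both. The 3 groups did not overlap, as for Rgs5 and Rgs4. It rose by 2.96 ± 0.16 on the log2 scale (edgeR adjusted p = 7.5e-09) and was 1.33 ± 0.13 lower in Both than in TGF-β (edgeR adjusted p = 0.000128), a call kept in all 17 alternative fits. The others that rose were Gna15, at most 3.2 normalized counts in Stem and 21.6 to 27.3 in TGF-β, and Gnat2, at most 14.1 in Stem and 23.3 to 31.2 in TGF-β. The widely expressed Gnaq, Gna11 and Gnai2 had at least 4545, 4043 and 13595 normalized counts in every library, and none of them changed 2-fold.

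Among Gβ and Gγ subunits, with 16 listed and 11 fitted, Gng2 rose by 1.46 ± 0.13 from Stem to TGF-β (edgeR adjusted p = 4.8e-07) and Gng4 was also called higher, by 1.03. The Gng4 call was at the edge of the 2-fold minimum and was lost under total counts, at a prior count of 2, without Stem replicate 3 and without TGF-β replicate 2, with log2 fold changes down to 0.90. Gng2 was 0.76 lower in Both than in TGF-β on the log2 scale (edgeR adjusted p = 0.00204), while Gng4 was 0.62 higher (edgeR adjusted p = 0.0195), and neither reached 2-fold. From Stem to Both, Gng4 rose by 1.64 and Gng7 fell by 1.28.

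Among 12 fitted effectors of 17 listed, Adcy7, an adenylyl cyclase stimulated by Gβγ, rose from 1341, 1192 and 1238 normalized counts in Stem to 7425, 7001 and 7456 in TGF-β, by 2.54 ± 0.06 on the log2 scale (edgeR adjusted p = 2.4e-12), and stood at 8129, 7308 and 7868 in Both. Plcb4 and Plcb1, phospholipases C activated by Gαq, fell by 1.17 and 1.09 (edgeR adjusted p = 3.5e-10 and 2.9e-07). None of the 12 was called between TGF-β and Both. Adcy1 fell by 1.36 from Stem to Both.

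Of the 8 other regulators of Gα listed, 7 were fitted; Ccdc88c rose by 1.59 from Stem to TGF-β, and Gpsm2, which holds Gαi in its GDP-bound form, fell by 1.05, a call lost without TGF-β replicate 2, at -0.99. Of 14 other genes with an RGS domain, 13 were fitted and 1, Axin2, a scaffold of the β-catenin destruction complex and a Wnt target, was called, lower by 1.83. Among the 3 partners of R7 proteins, Gnb5, the Gβ5 subunit, had 674.4 to 969.2 normalized counts over the 9 libraries, although Rgs7 was at or near 0 and no other R7 gene (Rgs6, Rgs9 and Rgs11) passed the filter. Rgs7bp, a membrane anchor of R7 complexes, had 129.3 to 246.7 normalized counts, and Rgs9bp was called lower from Stem to TGF-β, by 1.41, from at most 23.8 normalized counts.

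**Figure D4:**
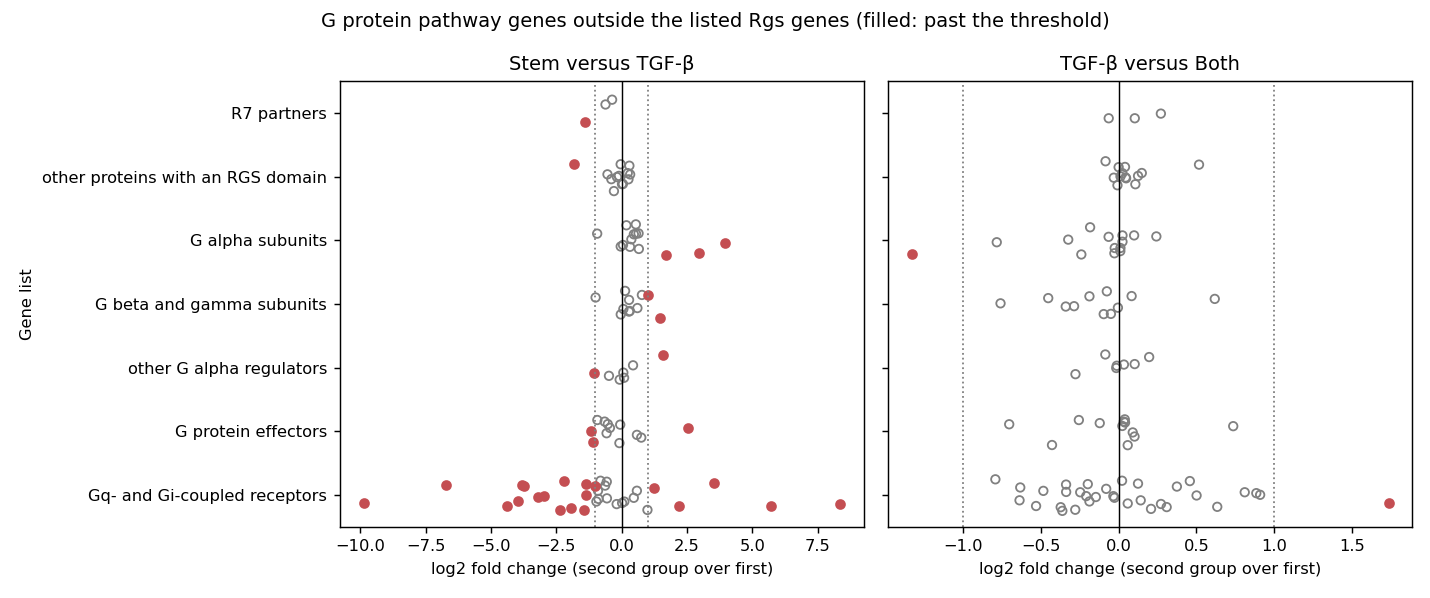
log2 fold changes of the 93 fitted genes of the 7 pathway lists, second group over first, for Stem versus TGF-β on the left and TGF-β versus Both on the right, with 1 point per gene, small random vertical offsets, dotted lines at 1 and -1, and horizontal scales that differ. Filled points passed both thresholds; on the left they lie mostly among the receptors, and on the right they are Gna14 at -1.33 and Bdkrb1 at 1.73.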

How the data were processed

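Total RNA of 9 libraries, 3 in each group, was ribo-depleted and sequenced as paired-end reads, from replicates that the study calls independent. The deposited values are raw counts per Ensembl gene made by the authors. The submitters' processing notes list HISAT2 2.2.1, SAMtools 1.13, HTSeq 0.11.3 and GRCm39, while the study's methods name another aligner, STAR; strand setting and treatment of multimapping reads are not given in the sources used here. Antisense genes share exonic bases with Rgs12 (467) and Rgs16 (236) and had 0 counts. Genes were filtered with filterByExpr, scaled by TMM and fitted over all 9 libraries with edgeR 4.0.16 (R 4.3.3) by quasi-likelihood, prior count 0.125, with Benjamini-Hochberg adjustment; DESeq2 1.42.0, other scalings, filters and left-out libraries were alternatives. Members and gene lists were chosen with earlier results of these data known. Named pathway genes were, per list and comparison, up to 3 called genes with the largest fold change and at least 100 mean normalized counts in the higher group; Bdkrb1, P2ry6, Gna15, Gnat2, Ccdc88c, Axin2, Rgs9bp and other genes outside this rule were named after their values were seen. Profiles used log2(normalized count + 0.5). RefSeq promoters matched 10 of 10 members. The labels do not say whether replicates are separate cultures or animals, so p-values measure the spread between these libraries, which may be technical. Scripts were tested on simulated data. Some results are not reported here.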

Additional observations from a re-analysis of the deposited data

How the results depend on the processing

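Without a fold-change minimum, 8, 2 and 7 Rgs genes passed at an adjusted p under 0.05 in Stem versus TGF-β, TGF-β versus Both and Stem versus Both, in place of 5, 1 and 4, and 74, 15 and 76 pathway genes in place of 32, 2 and 35. Between TGF-β and Both, DESeq2 and a fit of the 6 libraries compared each called 1 pathway gene, Gna14, where Bdkrb1 was lost. Leaving out each library in turn gave 4 to 5, 1 to 1 and 4 to 4 Rgs genes, and 31 to 36, 1 to 2 and 34 to 36 pathway genes; the 1 came without Stem replicate 3, TGF-β replicates 2 or 3, or Both replicates 2 or 3, and without TGF-β replicate 1 Bdkrb2 was called in place of Bdkrb1. No Rgs gene called in a comparison changed direction in any alternative; Rgs12 (Stem versus TGF-β, total counts) and, uncalled, Rgs2 and Rgs10 (TGF-β versus Both, left-out libraries) changed sign. Total counts moved the median of all genes to -0.12 and -0.11 on the log2 scale against Stem. With a replicate block, 5, 1 and 4 Rgs genes and 32, 2 and 35 pathway genes were called. That fit called 120 genes in place of 94 between TGF-β and Both. Correlations of same-numbered libraries' deviations ran from -0.06 to 0.16, and those of differently numbered libraries from -0.13 to 0.13. Replicate 2 pairs stood at 0.13 (Stem with TGF-β), 0.16 (Stem with Both) and 0.10 (TGF-β with Both). Whether replicate 2 shares a component was not tested. Not every library correlated best with its own number, so the numbers were not taken as pairs. At 3 counts or fewer, Rgs7 and 6 other Rgs genes could not be compared.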
